A study of Heliocidaris erythrogramma with 7 samples.

Results

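Cilium assembly and motility genes were taken as the features of the *Heliocidaris erythrogramma* (*He*) count matrices whose given name, without its species prefix, begins as an intraflagellar transport (IFT), BBSome (BBS), dynein heavy, intermediate or light chain (DNAH, DNAI, DNAL), tektin, CFAP, radial spoke (RSPH), sperm-associated antigen (SPAG) or coiled-coil domain (CCDC) gene. This rule found 168 of 38707 features, under 116 names, and used no measured value. They comprised 15 IFT, 16 BBSome, 31 dynein heavy chain, 3 tektin, 13 SPAG and 90 CCDC features, and 0 features matched the CFAP, radial spoke, or intermediate and light chain names.

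A motile cilium is built around an axoneme of microtubules, on which dynein arms produce bending and to which tektins and other inner proteins give stability. IFT trains carry tubulin and axonemal proteins along the growing cilium, and the BBSome sorts membrane proteins in and out of it. Sea urchin embryos swim with cilia that cover the ectoderm from the blastula stage, and the larva later carries longer cilia in a ciliary band. CCDC is a name given for a protein fold and not for a function, so the CCDC features were divided by the known role of the human protein: 21 axonemal, 10 of the centrosome or spindle, and 59 others. Besides genes chosen by a fixed rule, several were singled out after their values had been seen, among them *ccdc11*, *ccdc19*, *ccdc151*, *ccdc65*, *ccdc123*, *dnah6*, *dnah3_2*, *dnah1_2*, *ift88_1* and *ift20*. The division of the CCDC features was made after the values had been seen and serves only to describe them.

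*He*, a sea urchin whose larva develops on yolk without feeding, was sampled at 6, 9, 12, 16, 20, 24 and 30 h after fertilization (hpf), with 1 single-cell RNA-seq library at each age. The cells were dissociated from whole embryos or larvae, fixed in methanol and captured on a droplet platform that counts unique molecular identifiers (UMIs) at the 3′ ends of transcripts. No treatment or genotype is given, the libraries were run on the same flow cell, and age is the only difference that the labels give between them. With 1 library per age there was no replicate, so no test was made, and age cannot be told apart from the preparation of each library.

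After filtering, 23156 of 23173 cells were kept, between 486 at 16 hpf and 5346 at 30 hpf. The libraries held between 936734 UMIs at 16 hpf and 10769034 at 9 hpf, with medians of 1273 to 2581 UMIs per cell, and 63 barcodes occurred in more than 1 library. Levels are given as UMIs per 1000000 UMIs of the library (CPM), and 95% intervals are exact and cover counting error only. Because a library sums all of its cells, fewer cells of a type and less RNA per cell cannot be told apart in these levels.

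Of the 168 members, 143 had at least 1 UMI, 28 of these had a mean below 5 CPM over the 7 ages, and 115 passed this minimum. The 25 members with no UMI are not shown to be silent. Of these, 21 lie at loci that the annotation splits into several transcript features, where 75.0% of members and 75.8% of all 5949 such features had no UMI. Among features alone at their locus, 2.86% of 140 members and 24.9% of all 32758 had no UMI. The features at 0 included both of *spag17*, all 4 of *ccdc83*, all 3 of *ccdc28b* and both of *ccdc90a*, while the features at 0 of *ift81h*, *ccdc41* and *ccdc149* stand beside a counted one with 4014, 2006 and 5749 UMIs. The other 4 were 2 *dnah5* and 2 *dnah9* features. A count of 0 allowed a level of up to 0.279 CPM in the deepest and 3.20 CPM in the shallowest library (3 UMIs). In all, 35 names are carried by more than 1 feature, 87 members together, and reads that fit several copies may be split or lost, which was not tested.

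The summed level of all members was nearly flat. It was 7084, 6424, 6796, 5994, 6265, 5384 and 6151 CPM from 6 to 30 hpf, so that the level at 30 hpf was 0.868 of that at 6 hpf (0.857-0.880). This total hid opposite changes among its groups. CCDC features made up 81.4% of the members' UMIs in the 6 hpf library, 65.4% by 12 hpf and 71.4% by 30 hpf. The member with the most UMIs, *ccdc25*, which in humans encodes a membrane protein that binds extracellular DNA, alone stood at 1506, 623, 171, 574, 833, 574 and 801 CPM. Without the CCDC features the members were 1.79-fold higher at 12 than at 6 hpf (1.74-1.84), from 1318 to 2354 CPM, and at 30 hpf they stood at 1757 CPM. The direction from 6 to 9 hpf and from 16 to 20 hpf thus depended on these names: the log2 ratio of the whole set was -0.14 and 0.06, and without CCDC features it was 0.33 and -0.18.

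**Figure D1:**
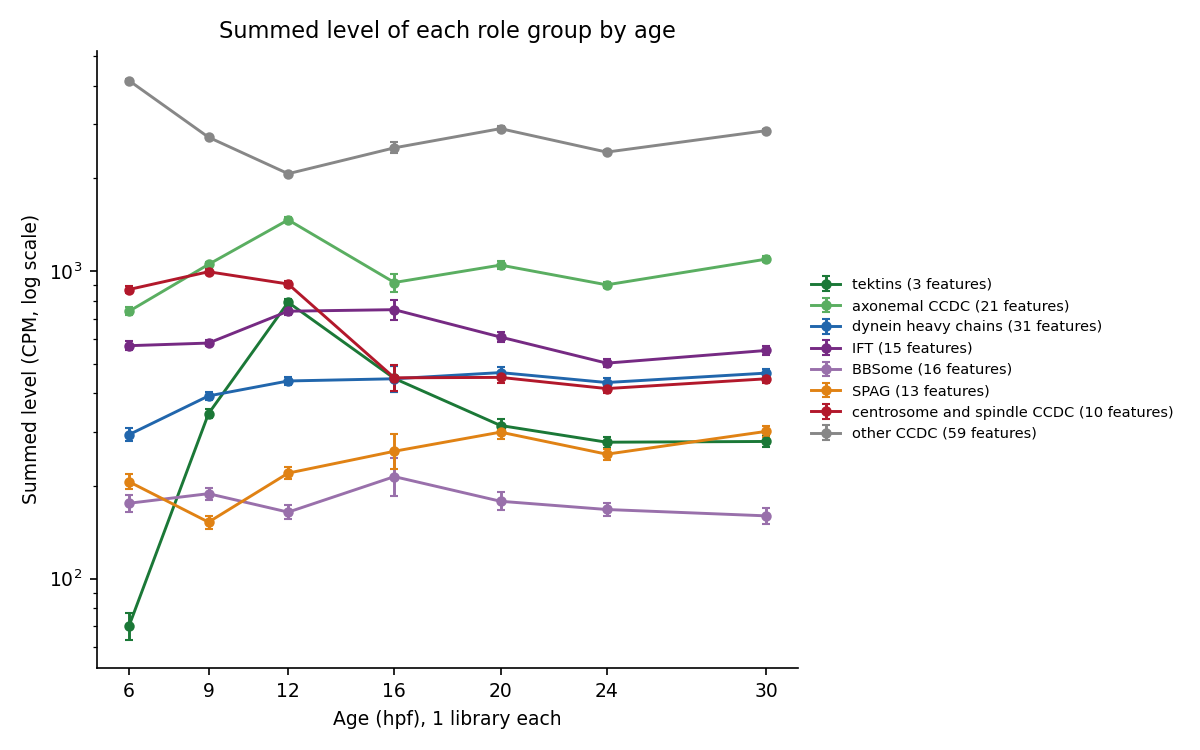
Summed level of each role group (CPM, log axis) against age (hpf), with 1 library per point and bars for exact 95% Poisson intervals. The tektins lie at 70.0 CPM in the first library, peak at 791 CPM at 12 hpf and are lower afterwards. The centrosome and spindle CCDC group is at 907 CPM at 12 hpf and at 449 CPM at 16 hpf, with much of this difference in *ccdc123*.

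The tektins, filament proteins of the outer microtubules of the axoneme, showed the steepest change of the groups. Their summed level was 70.0, 344, 791, 447, 315, 278 and 279 CPM, 11.3-fold higher at 12 than at 6 hpf (10.2-12.5) and at 30 hpf 0.353 of the 12 hpf level (0.336-0.371). All 3 had their highest level at 12 hpf, as did 11.3% of all features above the minimum level. *tektin3* was measured at 11.4, 116, 316, 251, 159, 166 and 142 CPM, and remained 12.5-fold higher at 30 than at 6 hpf (9.72-16.3). *tektin2* stood at 24.4, 186, 382, 149, 129, 91.3 and 115 CPM. *tektin1-4* was measured at 34.2, 42.1, 93.2, 47.0, 27.1, 20.7 and 22.1 CPM. It was therefore the only tektin that returned to or below its 6 hpf level, with a log2 ratio of 30 over 6 hpf of -0.53 after adding 5 CPM, a direction that turned to 0.17 when every cell was thinned to 500 UMIs.

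The axonemal CCDC features followed the tektins at a smaller scale. Their sum was 739, 1050, 1465, 917, 1045, 901 and 1092 CPM, and was 1.98-fold higher at 12 than at 6 hpf (1.91-2.05). Of the 14 that passed the minimum level, 7 were highest at 12 hpf, against 11.3% of all features above that minimum. *ccdc39*, which with *ccdc40* forms the ruler that spaces inner arms and radial spokes along the axoneme, was measured at 10.5, 70.4, 110, 60.9, 70.9, 61.4 and 81.4 CPM. It was 7.73-fold higher at 30 than at 6 hpf (5.93-10.3). *ccdc11* and *ccdc19*, named CFAP53 and CFAP45 in humans and lining the inside of the outer microtubules, stood at 250 and 239 CPM at 12 hpf against 77.9 and 60.7 CPM at 6 hpf. *ccdc151*, of the docking complex of the outer dynein arms, reached 159 CPM at 12 hpf from 36.5 CPM. *ccdc65* of the nexin-dynein regulatory complex went the other way, with 183 CPM in the first and 69.8 CPM in the last library.

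The dynein heavy chains, the motor subunits of the arms, changed less and did not decline after 12 hpf. They summed to 294, 392, 439, 446, 467, 434 and 466 CPM, and stood 1.59-fold higher at 30 than at 6 hpf (1.50-1.68). Of the 31 features, 14 passed the minimum level and 7 had no UMI. The feature with the highest mean level, a *dnah5* feature (HER_45128) of the outer arm, had a level at 30 hpf within counting error of that at 6 hpf (ratio 0.918, 0.812-1.04), at 83.7, 91.0, 109, 100, 75.7, 61.4 and 76.8 CPM. A *dnahc8* feature, also of the outer arm, was at 77.2 CPM at 6 hpf and 101 CPM at 30 hpf, and *dnah9_1* was at 21.9, 22.9, 39.5, 50.2, 56.9, 60.4 and 65.2 CPM. Inner arm chains differed in timing. *dnah3_2* was highest at 9 hpf, with 9.47, 52.3, 50.9, 38.4, 21.9, 16.0 and 15.9 CPM, whereas *dnah6* was at 6.14 CPM at 6 hpf against 23.8 CPM at 30 hpf and a *dnah1_2* feature (HER_15323) at 5.26 against 21.8 CPM.

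The IFT group was a mixture. It summed to 571, 583, 740, 748, 610, 502 and 551 CPM, so that the sum at 30 hpf was within counting error of that at 6 hpf (ratio 0.965, 0.921-1.01). The subunits that bind tubulin for transport, *ift74* and *ift81h*, were highest at 12 hpf. *ift74* was measured at 76.7, 135, 210, 194, 140, 126 and 124 CPM, and *ift81h* at 38.6, 62.5, 178, 167, 95.9, 58.6 and 73.9 CPM. *ift88_1*, a core subunit of the anterograde train, stood at 16.3, 61.6, 101, 88.6, 101, 83.5 and 97.5 CPM, 5.97-fold higher at 30 than at 6 hpf (4.81-7.50), and did not decline after 12 hpf. *ift57_1* (HER_42754), a peripheral subunit of the same train, was measured at 215 CPM at first, 91.2 CPM at 12 hpf and 62.9 CPM in the last library. *ift20*, which in other animals also works at the Golgi, had its lowest level at 12 hpf, 31.3 CPM, between 112 CPM in the first and 80.9 CPM in the last library. Members of a single transport particle thus had unlike time courses.

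The BBSome group was the flattest, at 176, 189, 164, 215, 178, 168 and 160 CPM. Its subunit *bbs4* was measured at 84.0, 71.6, 56.5, 73.7, 77.8, 60.3 and 54.5 CPM. Of the 11 features above the minimum level, only *bbs10l*, related to a chaperone that assembles the BBSome, was at least 2-fold higher at 30 hpf, at 17.3 against 4.03 CPM. A *bbs2* feature reached 41.6 CPM at 16 hpf, in the library with the fewest UMIs, and lay between 12.2 and 22.0 CPM at all other ages.

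SPAG names cover unrelated proteins, and their sum was 207, 153, 220, 259, 299, 254 and 301 CPM. *spag6*, of the central apparatus that runs through the middle of the axoneme, was measured at 2.81, 17.4, 26.1, 31.0, 41.9, 36.0 and 47.5 CPM. *spag16*, of the same apparatus, had the opposite course at first, with 119, 47.5, 28.3, 31.0, 41.7, 55.4 and 65.5 CPM. *spag8*, a protein inside the axonemal microtubules, was highest at 12 hpf, with 16.8, 21.1, 97.0, 71.5, 66.5, 32.8 and 46.3 CPM. *spag1*, needed for assembling dynein arms in the cytoplasm, was lowest at 12 hpf, with 60.0, 49.0, 22.0, 52.3, 78.6, 72.6 and 76.6 CPM.

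Of the remaining CCDC features above the minimum level, 18 of 44 others were highest at 6 hpf (40.9%). In the centrosome and spindle group 2 of 9 were highest at 6 hpf (22.2%) and 4 at 9 hpf (44.4%). Of all features above the same minimum, 30.9% were highest at 6 hpf and 14.8% at 9 hpf. The centrosome and spindle group summed to 870, 994, 907, 449, 451, 415 and 446 CPM. Its sum at 30 hpf was 0.513 of that at 6 hpf (0.490-0.536). The largest step of the sum was between 12 and 16 hpf, and much of it came from *ccdc123*, given below. In this group *ccdc99*, Spindly in humans, which holds dynein at kinetochores, was at 384, 386, 275, 145, 159, 148 and 173 CPM. *ccdc46*, CEP112 in humans, went from 128 and 161 CPM at 6 and 9 hpf to 22.9 CPM at 30 hpf. An exception was *ccdc123*, CEP89 in humans, with 25.4, 168, 334, 71.5, 65.7, 74.5 and 53.0 CPM, a course like that of the tektins. Its change from 334 to 71.5 CPM between 12 and 16 hpf is part of that of the group from 907 to 449 CPM.

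Among the other CCDC features the steepest declines belonged to genes that are not known from cilia. *ccdc94* and *ccdc130*, relatives of a splicing factor in humans, went from 273 to 24.0 CPM and from 79.6 to 8.84 CPM between 6 and 30 hpf. *ccdc97*, a spliceosome-associated protein in humans, stood at 365, 254, 44.8, 44.8, 36.9, 36.3 and 37.5 CPM. *ccdc44*, a factor of mitochondrial translation in humans, went from 65.1 to 10.3 CPM. With *ccdc46* these were the 5 members with the largest decline, at log2 ratios after adding 5 CPM of -3.26 for *ccdc94*, -3.12 for *ccdc97*, -2.61 for *ccdc130*, -2.25 for *ccdc46* and -2.19 for *ccdc44*. *ccdc6*, known in humans as a fusion partner in thyroid cancer, instead increased over the whole period, with 72.3, 92.5, 263, 409, 459, 366 and 471 CPM. The 5 members with the largest increase were *tektin3*, *spag6*, *ccdc6*, *ccdc39* and *ccdc81* (HER_35301), with log2 ratios of 3.17, 2.75, 2.62, 2.48 and 2.32. *ccdc81*, which in humans takes part in starting cilia from centrioles, was at 3.68 CPM at 6 hpf and at 72.9 CPM already at 9 hpf.

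A size rule was used in place of a test, and a feature was counted when its level after adding 5 CPM was at least 2-fold apart. From 6 to 30 hpf, 35 of the 115 members were higher (30.4%), against 25.8% of the 10612 features with a mean of at least 5 CPM, and 23 were lower (20.0%), against 25.7%. The median log2 ratio was 0.26 over the members and 0.03 over all features. As a set the members thus lay close to the background. With 20 CPM added, 15 members were higher and 15 lower (13% each), against 13.5% and 17.6% of all features, so that the members' larger share of higher features was not seen under that setting. The groups were uneven. Higher at 30 hpf were 6 of 14 dynein heavy chains, 2 of 3 tektins, 4 of 6 SPAG, 6 of 14 axonemal CCDC, 2 of 14 IFT, 1 of 11 BBSome, 1 of 9 centrosome and spindle CCDC, and 13 of 44 other CCDC features. Lower were 1 dynein heavy chain, 1 axonemal CCDC, 2 IFT, 5 centrosome and spindle CCDC and 14 other CCDC features, and none of the tektin, SPAG and BBSome features.

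The counts were also made for shorter spans. From 6 to 12 hpf, 36 members were higher (background 22.8%) and 24 lower (24.4%). From 12 to 30 hpf, 10 were higher (14.5%) and 10 lower (13.8%). Of the single steps, that from 6 to 9 hpf had 20 members higher (15.8%) and 14 lower (11.5%), and that from 9 to 12 hpf 9 higher (8.48%) and 6 lower (13.9%). From 12 to 16 hpf 6 were higher (9.74%) and 7 lower (5.78%), and from 16 to 20 hpf 1 was higher (1.85%) and 1 lower (1.73%). From 20 to 24 hpf (1.44% higher and 1.67% lower among all features) and from 24 to 30 hpf (0.933% and 1.4%) no member passed in either direction. The highest level fell at 12 hpf for 26 of the 115 members (22.6%), and for 11.3% of all features tested.

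**Figure D2:**
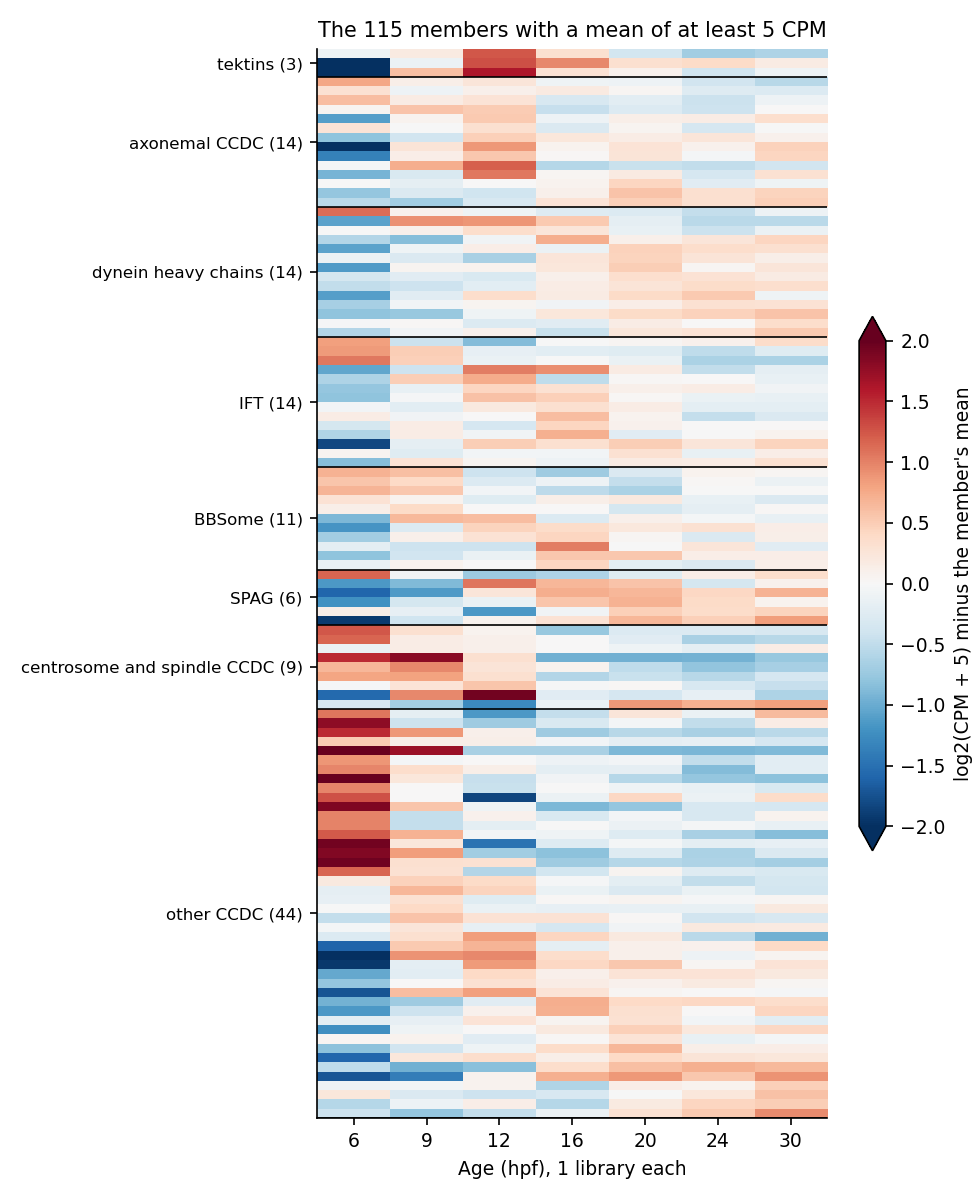
Each of the 115 members with a mean of at least 5 CPM is a row, ordered by role group and age of its highest level, and each age (hpf) is a column with 1 library. Color gives log2(CPM + 5) minus the mean of the member over the ages. All 3 tektins and 7 of 14 axonemal CCDC features are highest at 12 hpf (11.3% of all features tested), while 18 of 44 other CCDC features are highest at 6 hpf (30.9% of all features tested).

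Genes of the cilium that the name rule missed were examined from lists drawn up by function. Of the regulators, *foxj1*, the transcription factor that switches on motile cilium genes in vertebrates, was measured at 8.24, 105, 25.9, 23.5, 23.8, 43.8 and 36.3 CPM. Its level was highest at 9 hpf, 12.7-fold over 6 hpf (9.51-17.4), while the tektins were highest at 12 hpf. A feature of the RFX family of ciliary regulators, *rfxdc2l*, was at 24.2, 54.4, 148, 147, 143, 152 and 191 CPM. The *rfxl* and *rfx6l1* features stayed below 5 CPM, and the 5 *rfx3* features, all transcripts of the same locus, had no UMI.

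Of the structural lists, other axoneme genes had a sum 1.56-fold higher at 12 than at 6 hpf (1.53-1.58). At 30 hpf this sum was 0.994 of the 12 hpf level (0.981-1.01), and that of the axonemal CCDC group was 0.745 (0.724-0.767). Feature by feature the 2 lists were less unlike, with median log2 ratios of 30 over 12 hpf of -0.24 and -0.38. Over that span 3 of 39 other axoneme features were higher (7.69%, background 14.5%) and 9 lower (23.1%, background 13.8%). The counts at 30 against 6 hpf are read beside the 25.8% of all features that were higher and the 25.7% that were lower. Other axoneme genes had 10 of 39 features higher (25.6%) and 3 lower (7.69%). Tubulins had 16 of 28 higher (57.1%) and 6 lower (21.4%). BBSome and transition zone genes under other names had 2 of 15 higher (13.3%) and 6 lower (40.0%), transport motors 2 of 11 higher and 2 lower (18.2% each), and dynein assembly genes 2 of 9 higher (22.2%) and 1 lower (11.1%). The shares of higher features in the transport and dynein assembly lists were thus at or below that of all features. The 5 of these genes with the most UMIs were *btub1*, *btub3*, *tppp3*, *iqca1* and *arl13l*. Of these, *tppp3*, a microtubule-binding protein, was the steepest, with 59.5, 139, 582, 722, 1036, 1230 and 2248 CPM.

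To place the members among cell types, cells with at least 1 UMI of a marker were compared with all other cells of the same library. The markers were *onecut* (ciliary band ectoderm), *foxq2-1* (animal pole domain), *scl* (early mesoderm and blastocoelar cells) and *foxa* (endomesoderm and gut). The classes were not separate at first. At 9 hpf *onecut* was found in 2717 of 4034 cells, 90.1% of *foxq2-1*-positive cells also held *onecut*, and 72.4% of *scl*-positive cells also held *foxa*. At 30 hpf the largest overlap among the 4 classes was 14.9%, of *foxq2-1*-positive cells that also held *onecut*. Other markers were checked at 30 hpf. The α-tubulin *atub13*, a ciliary band marker, had a UMI in 84.7% of *onecut*-positive, 87.2% of *foxq2-1*-positive, 47.0% of *foxa*-positive and 13.1% of *scl*-positive cells, so it did not set the *onecut* class apart from the *foxq2-1* class. *hbn* of the animal pole domain was found in 74.3% of *foxq2-1*-positive and 18.7% of *onecut*-positive cells. *endo16* was found in 35.7% of *foxa*-positive cells and *gatac*, of mesoderm, in 22.2% of *scl*-positive cells, so most cells of these classes held no UMI of the second marker. Median depth at 30 hpf was 1299 UMIs in *onecut*-positive, 1019 in *foxq2-1*-positive, 1718.5 in *scl*-positive and 1631 in *foxa*-positive cells.

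The members' share of UMIs was alike in all 4 classes at 9 hpf and separated afterwards. At 9 hpf the ratio of marker-positive over marker-negative cells was 1.00 for *onecut* (0.988-1.02), 1.02 for *foxq2-1* (0.999-1.03), 1.01 for *scl* (0.973-1.06) and 1.01 for *foxa* (0.991-1.03). From 6 to 30 hpf the ratio for *onecut* was 1.00, 1.00, 1.21, 1.28, 1.26, 1.32 and 1.48. For *foxq2-1* it was 1.01, 1.02, 1.20, 1.31, 1.43, 1.48 and 1.65. Both ectodermal classes thus stood above their marker-negative cells, which include *scl*- and *foxa*-positive cells, from 12 hpf. For *scl* the ratio was 1.10, 1.01, 0.649, 0.718, 0.552, 0.562 and 0.644. Its value at 6 hpf lay above 1 (1.04-1.16) and rested on 50 cells. For *foxa* it was 1.01, 0.837, 0.921, 0.935, 0.914 and 0.755 from 9 to 30 hpf, with only 17 positive cells at 6 hpf. At 30 hpf the members took 1.00% of the UMIs of *foxq2-1*-positive, 0.865% of *onecut*-positive, 0.469% of *foxa*-positive and 0.411% of *scl*-positive cells. Cells with none of the 4 markers, 4096 at 30 hpf, were not low. The members took 0.733, 0.614, 0.651, 0.541 and 0.607% of their UMIs from 12 to 30 hpf, against 0.680, 0.599, 0.627, 0.538 and 0.615% of the whole libraries.

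**Figure D3:**
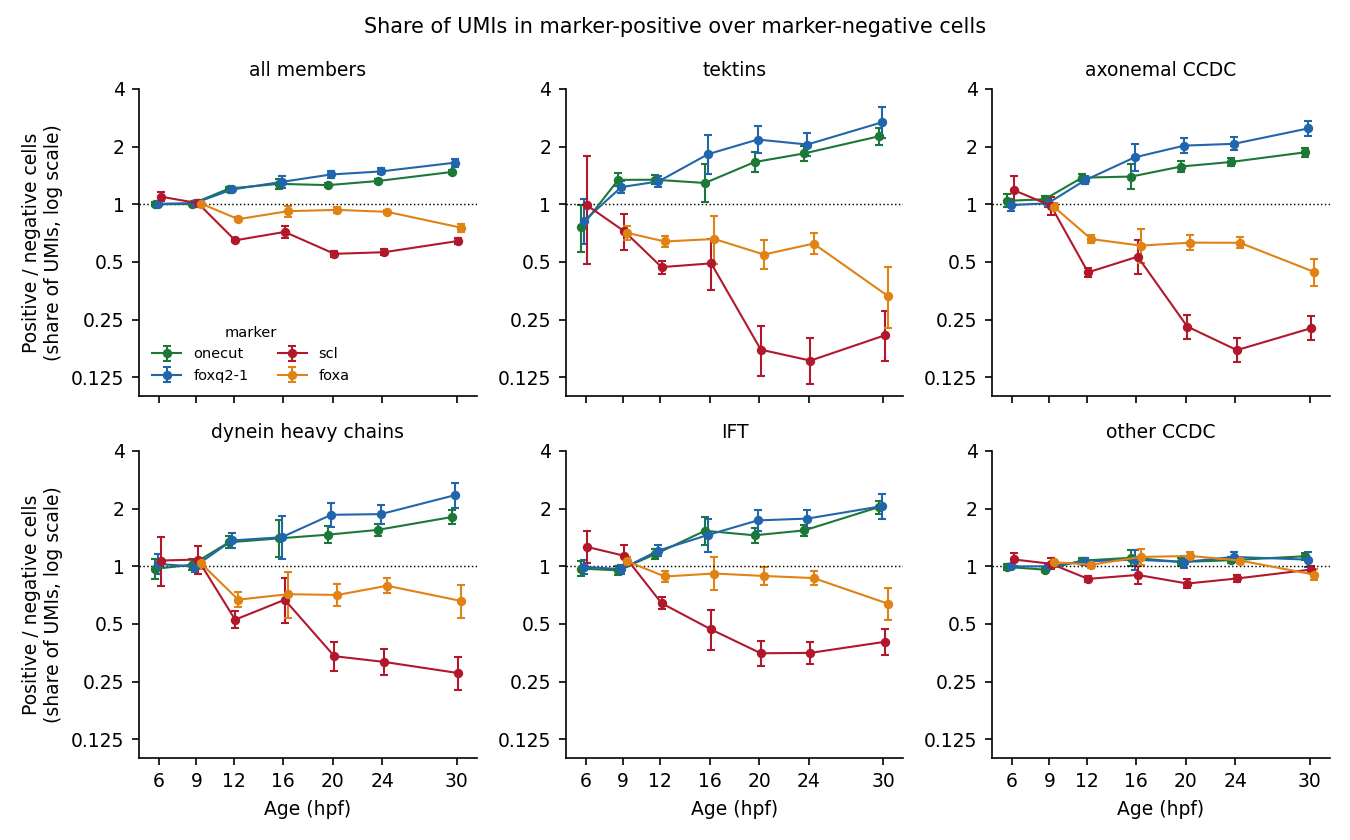
Share of UMIs in marker-positive cells divided by that in marker-negative cells of the same library (log axis) against age (hpf), for all members and 5 role groups, with bars for exact 95% intervals of the ratio. Classes of fewer than 50 cells are not drawn. Axonemal groups separate to 2.26 (*onecut*) and 0.207 (*scl*) for the tektins at 30 hpf, while the other CCDC group remains between 0.813 and 1.13.

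In summed levels the separation was seen mainly in the tektins, the axonemal CCDC group, the dynein heavy chains and the IFT group. At 30 hpf the tektin share was 2.26-fold higher in *onecut*-positive than in *onecut*-negative cells (2.03-2.52), 2.68-fold higher for *foxq2-1* (2.21-3.21), and 0.207 for *scl* (0.152-0.277) and 0.332 for *foxa* (0.225-0.473). With at least 2 UMIs of the marker required, the *scl* ratio was 0.128 (256 cells) and the *foxa* ratio 0.0975 (73 cells). In cells positive for *scl* alone the ratio was 0.119 (392 cells). No intervals were made for these 3 values. The corresponding ratios of the axonemal CCDC group were 1.87, 2.49, 0.226 and 0.443, those of the dynein heavy chains 1.81, 2.35, 0.277 and 0.658, and those of the IFT group 2.03, 2.06, 0.403 and 0.638. The BBSome ratios were 1.59, 2.08, 0.576 and 0.901. The sum of the other CCDC group stayed near 1, at 1.13, 1.08, 0.962 and 0.904.

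Set against each other, cells with *onecut* and no *scl* had a 14.2-fold higher tektin level than cells with *scl* and no *onecut* at 30 hpf (9.71-21.7; 544 and 395 cells), while the ratio had been 1.07 (0.464-3.05), 1.67 (1.24-2.29) and 2.62 (2.39-2.87) in the first 3 libraries. The axonemal CCDC ratio was 8.40 at 30 hpf (7.14-9.94) and the other CCDC ratio 1.16 (1.09-1.23). Other classes with low values were found at 30 hpf. In the 300 cells with *endo16*, a gut marker, the tektin ratio was 0.193 (0.136-0.267), and in the 207 cells with *pks1*, a marker of pigment cells, it was 0.192 (0.109-0.312). The 246 cells with a *foxj1* UMI were high, with ratios of 2.52 for the tektins (2.20-2.89), 2.25 for the axonemal CCDC group (2.10-2.42), 2.02 for the dynein heavy chains (1.80-2.26) and 1.14 for the other CCDC group (1.07-1.21).

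The tektins stood apart between classes before the whole set. At 9 hpf, when the ratio of the whole set lay between 1.00 and 1.02, the tektin ratio was 1.34 for *onecut* (1.24-1.45), 1.23 for *foxq2-1* (1.15-1.32), 0.723 for *scl* (0.578-0.893) and 0.709 for *foxa* (0.652-0.770). *tektin3* was furthest apart, with 1.72 for *onecut* (1.49-1.99) and 0.469 for *foxa* (0.396-0.552). *tektin2* had ratios of 1.28 and 0.816, while *tektin1-4* lay at 0.923 (0.754-1.13) and 0.975 (0.780-1.21). *foxj1* itself was already 3.02-fold higher in *onecut*-positive than in *onecut*-negative cells at 9 hpf, and stood at 0.216 for *foxa*.

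Member by member, at 9 hpf none of the 122 members with at least 20 UMIs was 2-fold higher or lower in *onecut*-positive cells (background 1.44% and 1.55%) or in *foxq2-1*-positive cells (0.374% and 1.08%). For *scl*, 0 were higher (2.75%) and 5 lower (4.41%), and for *foxa* 0 were higher (1.98%) and 1 lower (1.83%). At 12 hpf, of 120 members, 0 were higher (0.0515%) and 0 lower (3.24%) for *onecut*, 1 higher (0.876%) and 1 lower (3.95%) for *foxq2-1*, 2 higher (6.73%) and 20 lower (7.24%) for *scl*, and 1 higher (2.92%) and 1 lower (3.97%) for *foxa*. The upward counts for *onecut* and *foxq2-1* were near the background.

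At 30 hpf, 120 members had at least 20 UMIs. In *onecut*-positive cells 16 of these were at least 2-fold higher (background 3.05%) and 0 lower (5.04%), and the median log2 ratio was 0.54 against -0.05 for all features. In *foxq2-1*-positive cells 38 were higher (7.87%) and 10 lower (19.6%), with a median of 0.58 against -0.20. In *scl*-positive cells 2 were higher (7.42%) and 46 lower (13.2%), with a median of -0.73 against -0.08. In *foxa*-positive cells 3 were higher (3.76%) and 26 lower (10.5%), with a median of -0.47 against -0.06.

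**Figure D4:**
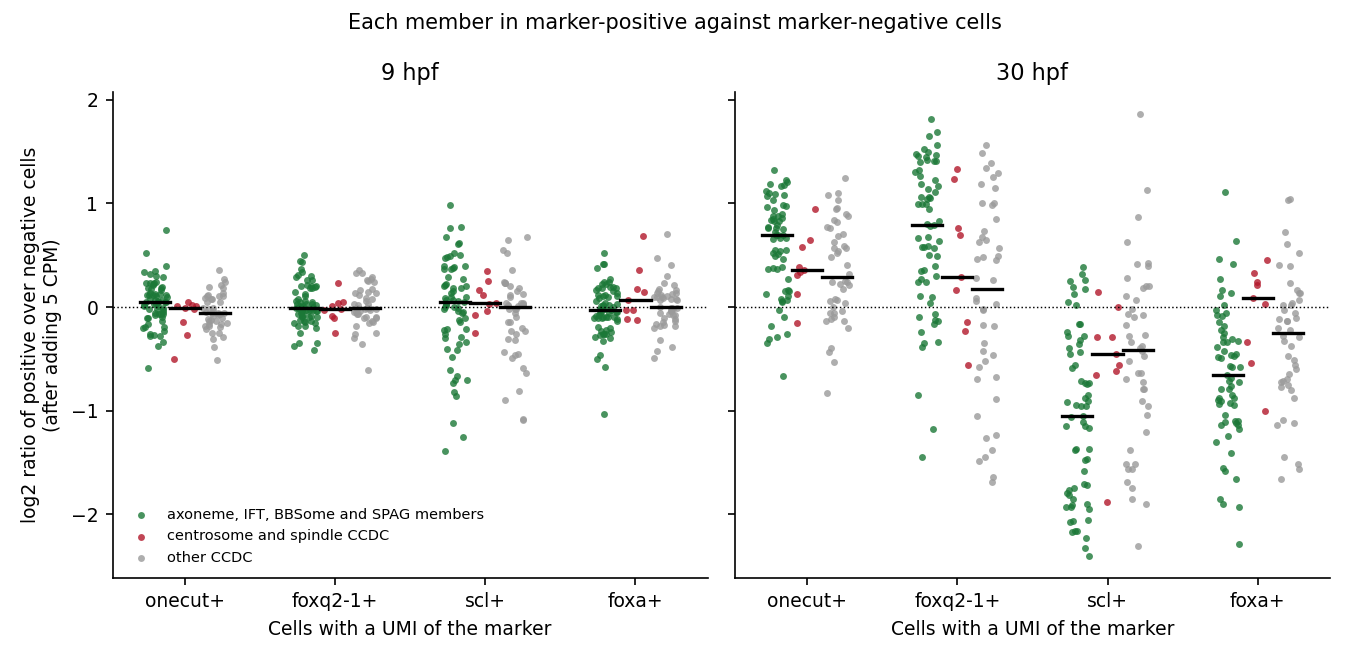
Each point is a member with at least 20 UMIs in the library, at 9 hpf (122 members) and 30 hpf (120 members), plotted by its log2 ratio of marker-positive over marker-negative cells after adding 5 CPM, colored by role (green for axoneme, IFT, BBSome and SPAG, red for centrosome and spindle CCDC, gray for other CCDC), with black lines for the median of each color and a random sideways offset. At 9 hpf the points center on 0 in every class, and at 30 hpf the median over all members is 0.54 for *onecut* and -0.73 for *scl*.

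Single axonemal and transport members at 30 hpf gave the following values. *dnah5* (HER_45128) had ratios of 2.35 in *onecut*-positive (1.91-2.88), 3.09 in *foxq2-1*-positive (2.17-4.28) and 0.192 in *scl*-positive cells (0.0985-0.338). *ccdc39* had 1.74, 2.90 and 0.196, *ift88_1* had 2.21, 2.14 and 0.254, and *spag16* had 1.80, 2.38 and 0.168. For *dnah5* in *foxa*-positive cells the interval included 1 (0.960, 0.610-1.44). Of the 14 axonemal CCDC features, 13 had a log2 ratio above 0 for *onecut* and 1 for *scl*, and of the 46 other CCDC features 33 and 13 did. The median over all features, given above, was slightly negative for both markers. The share of all features with a positive ratio is not given here, so these counts only describe the groups. The highest ratios for *onecut* among the 120 members belonged to *ccdc111* (HER_24447) at 3.20 (1.03-8.61), *bbs5_1* at 3.1 (1.19-7.24), *ccdc60l* (HER_35347) at 3.06 (1.83-4.94), *ift80l1* at 2.75 (1.20-5.76) and *ccdc89* at 2.68 (1.58-4.38). *bbs5* is a BBSome subunit and *ift80* a subunit of the anterograde train, whereas *ccdc111* is a DNA primase and polymerase in humans and rested on 22 UMIs. These highest values came from members with few UMIs and wide intervals.

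Several CCDC members went against the rest. *ccdc22* was 3.89-fold higher in *scl*-positive cells at 30 hpf (3.20-4.71), 2.13-fold higher in *foxa*-positive cells (1.53-2.90) and at 0.533 in *onecut*-positive cells (0.356-0.772). *ccdc93*, which in humans works with CCDC22 in a complex that recycles endosomal cargo, was at 2.26 for *scl* (1.87-2.72) and 0.677 for *onecut* (0.502-0.896). *ccdc53*, a subunit of the endosomal WASH complex in humans, was at 1.97 for *scl* (1.39-2.74). These genes were named after their values had been seen. At 12 hpf *ccdc22* was already at 1.95 for *scl* (1.41-2.66), while *ccdc93* was at 0.609 (0.447-0.814) and *ccdc53* at 1.07 (0.821-1.38). *ccdc22* also increased over time, with 23.3 CPM in the first and 68.3 CPM in the last library. *ccdc25* was at 0.414 in *foxq2-1*-positive cells at 30 hpf (0.314-0.536) and at 1.08 in *scl*-positive cells (0.989-1.17). The sum of the other CCDC group near 1 thus joined members on both sides: the median log2 ratio of its 46 features was 0.29 for *onecut* and -0.41 for *scl*.

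At the level of single cells, a tektin UMI was found in 3.24, 14.4, 30.4, 18.6, 14.2, 14.2 and 13.6% of cells from 6 to 30 hpf when each cell was thinned to 500 UMIs, which left out between 0 and 185 cells per library. Without thinning the shares were 16.5, 53.9, 63.1, 44.7, 31.8, 38.5 and 24.2%. At 30 hpf the thinned share was 25.0% of *onecut*-positive (21.4-28.8; 548 cells), 35.6% of *foxq2-1*-positive (27.9-44.0; 146 cells), 3.54% of *scl*-positive (1.95-5.86; 396 cells) and 5.46% of *foxa*-positive cells (2.65-9.82; 183 cells), after 7, 2, 10 and 2 shallower cells had been left out. The unthinned shares were 46.8%, 48.6%, 6.65% and 12.4%. The share in *scl*-positive cells, a mesodermal class, served as the reference. Free RNA was not measured, and what it gave to any of these shares was not tested. At 30 hpf the intervals of the *scl*- and *foxa*-positive tektin shares overlapped. At 20 and 24 hpf the tektin share in *foxa*-positive cells, 7.76% (5.44-10.7) and 9.42% (7.07-12.2), was above that in *scl*-positive cells, 2.51% (1.21-4.56) and 3.31% (1.72-5.72). At 30 hpf a dynein heavy chain UMI was found in 16.9% of *foxa*-positive (11.8-23.2) and 5.81% of *scl*-positive cells (3.72-8.59), and an axonemal CCDC UMI in 20.8% (15.1-27.4) and 8.84% (6.23-12.1). The *foxa*-positive cells were thus lower than the ectodermal classes but above the *scl*-positive cells in these shares. At 20 and 24 hpf, however, 10.2% and 12.8% of *foxa*-positive cells also held *onecut*, against 6.85% and 2.76% of *scl*-positive cells. What such cells gave to the shares was not tested. With at least 2 UMIs of the marker required, the tektin ratio given above for 30 hpf was lower for *foxa* than for *scl*. That order rests on 73 and 256 cells without intervals, so it is not settled. Without thinning the corresponding *foxa* and *scl* shares were 24.1% and 7.82% for the tektins at 20 hpf, 33.3% and 8.01% at 24 hpf (median depths of 1671 and 1777 UMIs at 20 hpf, and of 2833 and 2972 at 24 hpf), and at 30 hpf 40.5% and 18.7% for the dynein heavy chains and 37.8% and 20.7% for the axonemal CCDC group.

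**Figure D5:**
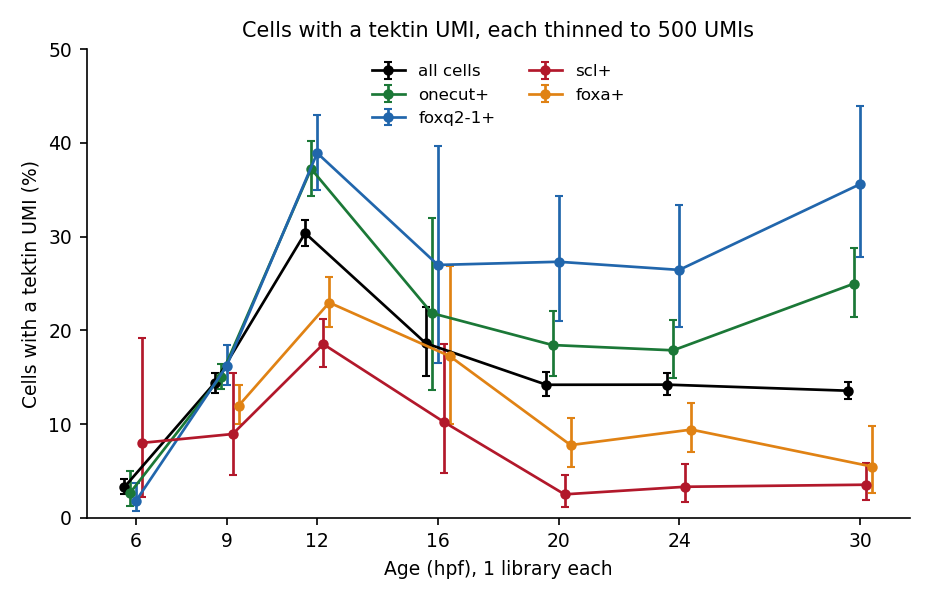
Percentage of cells with at least 1 tektin UMI after thinning each cell to 500 UMIs, against age (hpf), for all cells and the 4 marker classes, with exact 95% binomial intervals and classes of fewer than 50 cells not drawn. At 30 hpf 25.0% of *onecut*-positive and 35.6% of *foxq2-1*-positive cells had a tektin UMI, and 3.54% of *scl*-positive cells.

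Tektin UMIs came to mark cells with other axonemal transcripts. In thinned cells the level of the axonemal CCDC group in cells with a tektin UMI over cells without was 1.07 at 9 hpf (0.949-1.21), 1.27 at 12 hpf (1.19-1.37) and 2.71 at 30 hpf (2.51-2.91). For the dynein heavy chains it was 1.06, 1.15 and 1.97, and for the IFT group 1.04, 1.09 and 1.70. The other CCDC group did not follow, at 1.08, 1.01 and 1.08. Thus tektin-positive cells at 9 hpf, the age with the highest *foxj1* level, differed little from other cells in the remaining axonemal members, and by 30 hpf they differed by more than the counting intervals.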

How the data were processed

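Libraries were made with the 10x Chromium 3′ kit and the deposited matrices hold UMI counts per feature and barcode, which the authors produced with Cell Ranger 3.1.0, and Seurat 4.0 is also named in the submitters' processing notes. The genome build is not given in the sources used here. The cell filter followed the published methods, which ask for over 200 but under 4000 detected genes and under 10000 UMIs, and no doublet caller was run. Counts were summed per library or marker class and scaled to CPM (Python 3.11.15, numpy 2.4.6, scipy 1.17.1, matplotlib 3.10.9).

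Each age is a group of 1 library, so sizes were compared after adding 5 CPM, with a 2-fold rule among features with a mean of at least 5 CPM, or at least 20 UMIs in a library for marker classes of at least 50 cells. Ratios have exact conditional binomial intervals, levels exact Poisson intervals, and shares of cells Clopper-Pearson intervals, all at 95%. UMIs were ranked and summed as counted, and since they lie at 3′ ends such ranks and shares are of UMIs and not of transcripts. The 2-fold rule and the ratio interval were tested on simulated counts, and the thinning was checked on a library of these data.

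Named genes were the 3 members of each group with the highest mean CPM, the 5 with the largest increase and the 5 with the largest decrease from 6 to 30 hpf, the 5 with the highest *onecut* ratio at 30 hpf, the regulators and the 5 other cilium genes with the highest mean CPM. The members and lists were chosen with earlier results of these data known. Alternatives changed the cell filter, thinning to 500 UMIs, the added CPM, the minimum level, the scaling, the marker threshold and the features included.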

Additional observations from a re-analysis of the deposited data

Results flagged for a closer look

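The following ratios of marker-positive over marker-negative cells lay wholly above 1 in 1 library and wholly below 1 in another by their counting intervals, and the differences between libraries were not tested. The tektin ratio for *onecut* was 0.757 at 6 hpf and 2.26 at 30 hpf, and the other CCDC ratio for *onecut* was 0.960 at 9 hpf and 1.13 at 30 hpf. For *scl*, the ratio of all members was 1.10 at 6 hpf and 0.552 at 20 hpf, that of the IFT group was 1.26 and 0.351, and that of the other CCDC group was 1.09 and 0.813 in the same libraries. The 6 hpf values for *scl* rest on 50 cells. For *foxa*, the IFT ratio was 1.06 at 9 hpf and 0.638 at 30 hpf, and the other CCDC ratio was 1.13 at 20 hpf and 0.904 at 30 hpf.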

How the results depend on the processing

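No paired analysis was possible because each age has 1 library. Of 99 alternative values for the main results, 64 stayed within counting error or 1.5 times, 32 moved and 3 turned direction. The log2 ratios of the summed level over neighboring ages were small and depended on what was summed. Without CCDC features they were 0.33 from 6 to 9 hpf (reported -0.14), 0.50 from 9 to 12 hpf, -0.18 from 16 to 20 hpf (reported 0.06), -0.19 from 20 to 24 hpf and 0.10 from 24 to 30 hpf. Without *ccdc25* the 6 steps were 0.057, 0.19, -0.29, 0.0034, -0.18 and 0.15. With median-of-ratios size factors they were -0.31, 0.25, -0.51, 0.15, -0.0055 and 0.13, where this scaling shifted all features by -0.17, 0.17, -0.33, 0.08, 0.21 and -0.06. Thinned cells gave -0.22 from 12 to 16 hpf, 0.16 from 16 to 20 hpf and 0.28 from 24 to 30 hpf, and cells with more than 500 genes gave 0.17 for the last step. With the 16 hpf library left out, an alternative chosen after seeing the data, the ratio of 20 over 12 hpf was -0.12. Adding 20 CPM left 15 members higher and 15 lower at 30 hpf (background 13.5% and 17.6%), and a minimum mean of 20 CPM left 23 higher. Of the named members, *tektin1-4* turned direction when thinned (0.17). For the module share, CCDC features left out gave 1.05 for *onecut* and 1.04 for *foxq2-1* at 9 hpf, and 0.568 for *scl* and 0.761 for *foxa* at 12 hpf. For *foxq2-1* at 9 hpf, thinning gave 0.980 and cells positive for that marker only 0.950. For *scl* at 12 hpf, leaving out the deepest 5% of cells gave 0.630, at least 2 marker UMIs 0.585 and that marker only 0.583, and for *foxa* that marker only gave 0.883. The tektin results for 12 over 6 hpf (log2 3.49 to 3.51) and for *onecut* at 30 hpf (1.81 to 2.56) kept their direction under the alternatives run, which were chosen after seeing the data. The causes of these shifts were not tested. Depth limits the 16 hpf library most, where a count of 0 allows 3.20 CPM.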
